A study of Mus musculus with 2 samples.

Results

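Potassium channel genes were taken as every gene of the count table whose symbol begins with Kcn and carries a subfamily letter and a number, leaving out pseudogenes and the antisense or overlapping transcripts marked os or ot. They came to 93 of the 49492 genes. By symbol, 40 encode voltage-gated pore subunits, 15 inward rectifiers, 14 two-pore channels and 8 calcium- or sodium-activated channels. The other 16 are accessory subunits that form no pore of their own. The voltage-gated count includes modifiers that open no channel alone, Kcns1, Kcns3 and Kcnf1 among them. Mammary basal cells of wild type adult female mice were purified by FACS and grown in a 3D matrix gel, either untreated (ctrl) or for 11 to 14 days beside M2-like macrophages (M2), which were derived from bone marrow and kept in a porous insert. Total RNA of the resulting colonies or organoids was sequenced, with 1 library per group, so no difference below has a replicate check. Each comparison is between 2 libraries, not between the conditions, and no p-value is given. How many animals or wells went into a library is not given in the sources used here.

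Potassium channels let potassium leave the cell down its gradient and so hold the membrane voltage negative. Voltage-gated channels open on depolarisation, inward rectifiers stabilise the resting voltage, two-pore channels carry a background leak, and calcium-activated channels couple calcium signals to voltage. In glandular epithelia this voltage drives chloride and fluid transport, and in contractile cells such as the myoepithelial cells of the basal layer it also sets calcium entry.

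The pore of these channels is lined by a short conserved stretch called the selectivity filter. The coding sequences of the pore subunits with the clearest differences, and of the most abundant ones, are shown around that stretch to let the classes be compared (57 bases each, 5′ to 3′, from the longest coding sequence of each gene in GENCODE release M21 on GRCm38). Capitals mark the in-frame match to the codon pattern ACNNNNGGNTNNGGN, which was searched on the coding strand alone.
Kcnj15: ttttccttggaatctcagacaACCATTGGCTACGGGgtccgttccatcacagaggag
Kcnj2: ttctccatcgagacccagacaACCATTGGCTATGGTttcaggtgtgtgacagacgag
Kcnq1: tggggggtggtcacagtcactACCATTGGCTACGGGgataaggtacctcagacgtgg
Kcnf1: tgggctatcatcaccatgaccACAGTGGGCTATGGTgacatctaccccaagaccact
Kcns1: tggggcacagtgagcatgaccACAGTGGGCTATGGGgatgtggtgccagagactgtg
Kcns3: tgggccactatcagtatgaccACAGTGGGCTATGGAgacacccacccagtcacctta
Kcnk1: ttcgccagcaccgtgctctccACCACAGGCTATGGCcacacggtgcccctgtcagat
Kcnn4: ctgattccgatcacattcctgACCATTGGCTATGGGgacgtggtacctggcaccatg

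The capitals lie at chr16:95295980-95295994 in exon 4 of Kcnj15, at chr11:111072207-111072221 in exon 2 of Kcnj2, at chr7:143191432-143191446 in exon 7 of Kcnq1 and at chr7:24379198-24379212 in exon 4 of Kcnn4, all on the plus strand. Those of Kcnf1 (chr12:17175061-17175075), Kcns1 (chr2:164164854-164164868) and Kcns3 (chr12:11091575-11091589) are on the minus strand, and that of Kcnk1 is split between exons 1 and 2. The pattern was found in 66 of the 77 members outside the accessory class and in 0 of the 16 accessory ones. Of 21501 mouse coding sequences, 2.41% held it. Among the two-pore channels, whose subunits carry a pair of pore loops, 11 of 14 held it at least 2 times, which 0.130% of all coding sequences did. The pattern follows the filter itself, so finding it in channel genes is no test of them. All coding sequences here include those of the members. The letters were not found in Kcnh1, Kcnh2, Kcnh3, Kcnh4, Kcnh6, Kcnh7 and Kcnh8 of the voltage-gated class, in Kcnn1, Kcnn2 and Kcnn3, or in Kcnj14. Within the inward rectifiers, the windows of Kcnj15 and Kcnj2 were identical at 41 of 57 bases (71.9%). Of the inward rectifier Kcnj15 and the calcium-activated Kcnn4, 14 of the 15 capitals, part of which the pattern itself fixes, and 20 of the 57 bases (35.1%) were identical.

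To find which potassium channels the cultures expressed, reads were counted against a minimum of 10. In ctrl 35 members reached 10 reads and in M2 36 members did, 31 of them in both libraries. Summed over the 2 libraries, 45 of 93 members passed 10 reads and were compared. These were 15 of 40 voltage-gated members, 7 of 15 inward rectifiers, 7 of 14 two-pore channels, 5 of 8 calcium- or sodium-activated channels and 11 of 16 accessory subunits. Of the 48 others, 14 had no read in either library and 34 had between 1 and 9 summed reads, at most 7 in ctrl and 5 in M2. The upper limit for a gene without reads is 3 reads, or 0.111 CPM (reads per 1000000 reads of the library) in ctrl and 0.102 CPM in M2, so the 14 members without a read were not detectable at this depth, which does not show that they are absent.

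Differences are log2 ratios of (reads + 1) per library size, M2 over ctrl, with a 95% Clopper-Pearson interval that covers counting error only. A gene was called when it differed at least 2-fold and its interval lay on one side of equality. By this rule 18 of the 45 members were called (40.0%), against 15.3% of all 19233 genes tested. In M2 5 members were higher (11.1%, against 7.92% of all genes) and 13 were lower (28.9%, against 7.40%). The median member differed by −0.45 on the log2 scale (quartiles −1.16 and 0.39), while the median of all genes tested was −0.06 (quartiles −0.38 and 0.29). Rates of calling depend on read number. Members with 10 to 99 summed reads were called in 8 of 28 cases (28.6%, against 26.8% of all genes in that range), those with 100 to 999 in 8 of 13 (61.5%, against 16.1%), and those with at least 1000 in 2 of 4 (50%, against 7.56%). In the plot of every member by library, Kcnj15, Kcnq1 and Kcnmb1 have the largest log2 differences above the diagonal among the members compared (7.04, 2.95 and 2.82).

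**Figure D1:**
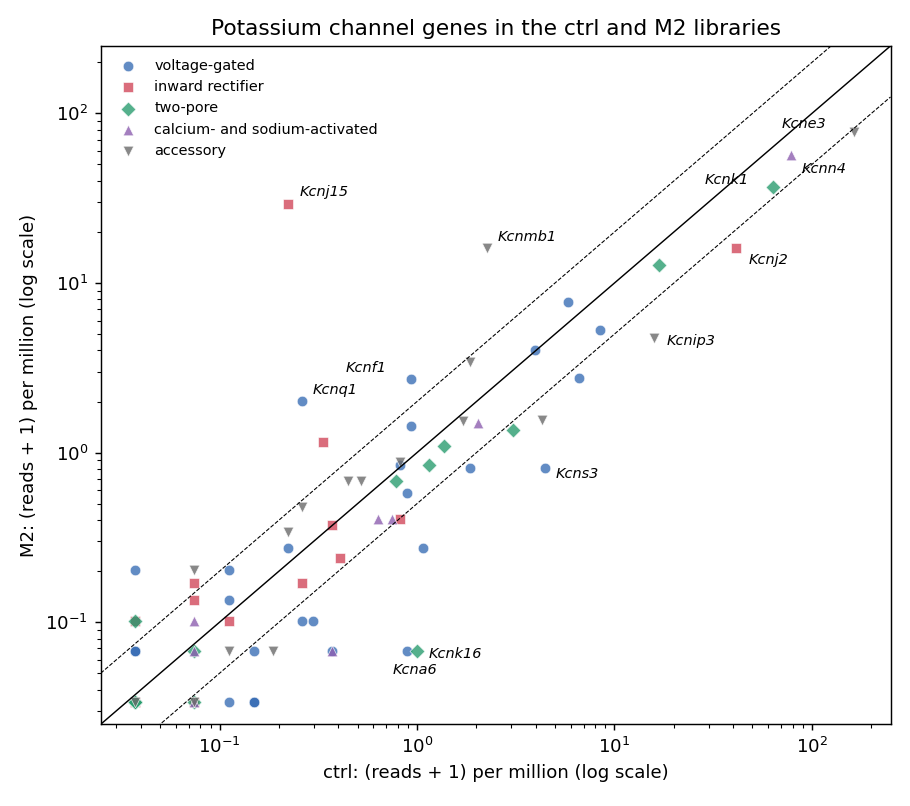
Each point is 1 of the 93 potassium channel genes, plotted by reads + 1 as CPM in ctrl (x axis) and in M2 (y axis). Both axes are on log scales, and the class is given by colour and shape. Members without a read in either library fall on the same point at the lower left. The solid line marks equality and the dashed lines 2-fold differences. Kcnj15 lies far above the upper dashed line, while Kcne3, Kcnk1 and Kcnn4 form the top of the range in both libraries.

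The libraries held 26912610 (ctrl) and 29413844 (M2) reads in genes, of which the members took 0.0443% and 0.0298%. Markers of basal epithelium were at about the same summed level in both (7984 and 8015 CPM over 8 genes, with Krt17 called higher in M2 and Oxtr lower). Luminal markers summed to 4136 CPM in ctrl and 3236 CPM in M2, and 5 of 10 (Esr1, Prlr, Elf5, Kit and Pgr) were called lower in M2, while Krt8, Krt18, Krt19, Epcam and Gata3 were not called. Fibroblast markers summed to 337 and 131 CPM, with 4 of 7 lower and 1 higher, and skeletal muscle markers to 8.88 and 21.4 CPM, with 2 of 4 higher. Of 12 macrophage markers 4 passed 10 reads and 0 were called, with summed levels of 66.3 and 80.4 CPM, most of it Arg1. Adgre1, Ptprc, Fcer1g and Tyrobp had no read in either library. Endothelial markers stood at 2.12 and 2.75 CPM (1 higher and 2 lower of 3 tested). Schwann cell and neuron markers stood at 379 and 293 CPM, nearly all from Sox10, with 0 of 6 called and Elavl4 at 0. The part of luminal, fibroblast and muscle RNA in the differences below was not tested, and in bulk RNA fewer cells of a type and less RNA per cell cannot be told apart.

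Among voltage-gated members, 8 of the 15 compared were called (53.3%, against 15.3% of all genes), 2 higher and 6 lower in M2. The 4 described first are those called with at least 50 reads in a library. Kcns1 (chr2:164163619-164171113) encodes a modifier subunit that opens no channel alone and joins subunits of the Kcnb family. Its reads were 177 in ctrl and 80 in M2, or 2.43 and 1.003 RPKM (CPM per kilobase of gene length), a log2 difference of −1.26 (−1.67 to −0.89). Its relative Kcns3 (chr12:11090202-11150842), a modifier of the same kind, had 119 and 23 reads (1.45 and 0.26 RPKM), a log2 difference of −2.45 (−3.21 to −1.85). Both were thus lower in M2, Kcns3 by the wider margin. Of the partners of these modifiers, Kcnb2 had 3 and 0 reads.

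The members of this class that were higher in M2 were Kcnf1 and Kcnq1. Kcnf1 (chr12:17172100-17176888), also a silent modifier of Kcnb channels, had 24 reads in ctrl against 79 in M2 (0.19 and 0.56 RPKM), a log2 difference of 1.55 (0.92 to 2.31). The modifiers therefore did not move in 1 direction. Kcnq1 (chr7:143106362-143427042), the pore subunit of slowly activating channels that in epithelia pair with Kcne subunits, had 6 and 58 reads (0.05 and 0.48 RPKM), a log2 difference of 2.95 (1.94 to 4.65). It moved from rank 45 to rank 16 among the 93 members by RPKM. Antisense Kcnq1ot1 covers 121 bases (2.96%) of its exons and had 156 and 122 reads, so it was not higher in M2. Kcnh1 had the most reads of the class in ctrl, 227 against 154 in M2 (1.15 and 0.71 RPKM), and stayed under 2-fold at −0.68 (−0.99 to −0.39).

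Among inward rectifiers, 2 of the 7 compared were higher in M2 and 1 was lower (42.9% called, against 15.3% of all genes). The 2 members with the most reads lay on opposite sides. Kcnj15 (chr16:95257558-95300260), a rectifier known from kidney and from glands, had 5 reads in ctrl against 863 in M2, or 0.03 and 4.37 RPKM. Its log2 difference was 7.04 (6.07 to 8.93), the widest of all members in either direction, and its rank by RPKM went from 50 to 4. Kcnj2 (chr11:111066164-111076821), the strong rectifier that clamps the resting voltage of muscle and many other cells, had 1103 and 475 reads (7.53 and 2.97 RPKM). It was lower in M2 by a log2 difference of −1.34 (−1.50 to −1.19). Per length, Kcnj2 was 272 times Kcnj15 in ctrl, a ratio that rests on 5 Kcnj15 reads, whereas Kcnj15 was 1.47 times Kcnj2 in M2. The most abundant inward rectifier was thus a different gene in each library.

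Neighbouring rectifier genes did not share these levels. Kcnj6, 260 kb from Kcnj15, had 1 and 0 reads, and Kcnj16, 38.2 kb from Kcnj2, had 1 and 3. Kcnj9, a subunit of the rectifiers opened by G proteins, had 8 and 33 reads and a log2 difference of 1.79 (0.77 to 3.24), while Kcnj10, 11.9 kb from it, had 1 and 0. Kcnj11, the pore subunit of ATP-sensitive channels, had 10 and 6 reads, a log2 difference of −0.78 with an interval that held 0. Kcnj8, the other pore subunit of such channels, had 1 and 4 reads and was under the minimum.

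Among two-pore channels, 0 of the 7 compared were higher in M2 and 2 were lower (28.6% called, against 15.3% of all genes). All 7 had a negative log2 difference, where the median of all genes tested was −0.06. The intervals of Kcnk7, Kcnk4 and Kcnk2 held 0, so counting error leaves their direction unsettled. Kcnk1 (chr8:125995170-126030685), a weakly conducting leak channel common in epithelia, was the second most abundant member per length in both libraries. It had 1714 and 1077 reads (28.5 and 16.4 RPKM), and its log2 difference of −0.80 (−0.91 to −0.69) left equality without reaching 2-fold. Kcnk5 (chr14:20140058-20181782), a leak channel opened by alkaline pH, had 450 and 376 reads (4.97 and 3.80 RPKM) and a log2 difference of −0.39 (−0.59 to −0.19). The lower calls were Kcnk6 and Kcnk16. Kcnk6 (chr7:29221926-29232515), a relative of Kcnk1, had 81 and 39 reads (0.73 and 0.32 RPKM), a log2 difference of −1.16 (−1.77 to −0.61). Kcnk16, 81.0 kb from Kcnk5, had 26 reads in ctrl but 1 in M2. For it, as for every gene with at most 3 reads in a library, the interval limit closest to equality is given in place of a difference, here −2.22.

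Of the calcium- and sodium-activated class 5 members were compared, all with a negative log2 difference. Of these 1 was called (20%, against 15.3% of all genes). Kcnn4 (chr7:24370263-24386690), the intermediate conductance channel opened by calcium through calmodulin and the main such channel of many epithelia, held nearly all of its reads. Its reads were 2114 in ctrl and 1667 in M2 (15.4 and 11.1 RPKM), with a log2 difference of −0.47 (−0.56 to −0.38). Kcnn1 (chr8:70842049-70863258), a small conductance relative, had 54 and 43 reads (0.44 and 0.32 RPKM) and a log2 difference of −0.45 (−1.07 to 0.15), an interval that held 0. Kcnma1, the pore of the large conductance (BK) channel of smooth muscle and glands, had 19 and 11 reads, a log2 difference of −0.87 (−2.13 to 0.23). Its interval held 0, as did that of Kcnn2. The called member was Kcnu1, a channel known from sperm that was placed in the class by its symbol alone. It had 9 reads in ctrl, 1 in M2 and a closest limit of −0.45.

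Accessory subunits included the most abundant member of all. Of the 11 compared 4 were called (36.4%, against 15.3% of all genes), 1 higher and 3 lower in M2. Kcne3 (chr7:100176502-100184869), the subunit that keeps Kcnq1 channels open at rest in secretory epithelia, had 4393 reads in ctrl against 2286 in M2. At 91.8 and 43.7 RPKM it ranked first in both libraries, and its log2 difference was −1.07 (−1.14 to −0.997), just past 2-fold. With size factors from median-of-ratios scaling it was −0.99 and was not called. Kcne3 and its partner Kcnq1 thus moved in opposite directions, and the ratio of their RPKM went from 1685 in ctrl, where it rests on 6 Kcnq1 reads, to 90.7 in M2. Kcne1 had no read in either library, Kcne2 had 1 and 0, and Kcne4 had 1 and 5.

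The beta subunits of the BK channel, which tune its calcium sensitivity, differed in level from its pore. Kcnmb1 (chr11:33963013-33973641), the form known from smooth muscle, had 60 reads in ctrl against 471 in M2 (0.53 and 3.82 RPKM), a log2 difference of 2.82 (2.45 to 3.26), and went from rank 17 to rank 5. Its RPKM was 5.23 times that of Kcnma1 in ctrl and 71.0 times in M2. It lies inside the span of Kcnip1, which had 2 and 1 reads. Of the 8 basal markers, which include contractile genes of myoepithelial cells, Krt17 was called higher (1.33), the oxytocin receptor gene Oxtr lower (−2.24), and 6, with Acta2, Myh11 and Cnn1 among them, were not called. Their part in the level of Kcnmb1 was not tested. Kcnmb4, the form known from neurons, had 49 and 100 reads and a log2 difference of 0.89 (0.39 to 1.43), under 2-fold. Kcnmb4 shares exon sequence with antisense Kcnmb4os1 (16 and 42 reads) and Kcnmb4os2 (17 and 26), so its own reads are uncertain. Kcnmb2 stayed at 5 and 9 reads and Kcnmb3 at 4 and 1.

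Subunits that bind the Kcnd channels made up the remaining calls. Kcnip3 (chr2:127456498-127522094), a calcium sensor that also acts as a transcriptional repressor, had 427 reads in ctrl against 138 in M2 (4.47 and 1.32 RPKM), a log2 difference of −1.75 (−2.05 to −1.48). Kcnip4 (chr5:48389502-49524907) had 115 and 45 reads (1.18 and 0.42 RPKM), a log2 difference of −1.46 (−2.01 to −0.97). The antisense gene 5730480H06Rik, which covers 4.63% of its exons, had 434 and 415 reads. Kcnip3 and Kcnip4 were thus lower in M2. Kcnip2, of the same family, had 6 and 13 reads, a log2 difference of 0.87 (−0.51 to 2.67), and was not called. The Kcnd pores stood at low and similar counts, 21 and 24 for Kcnd1, 23 and 16 for Kcnd3, and 1 and 0 for Kcnd2. The beta subunits of Kcna channels were not called, with 21 and 25 reads for Kcnab1, 45 and 44 for Kcnab2 and 13 and 19 for Kcnab3.

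**Figure D2:**
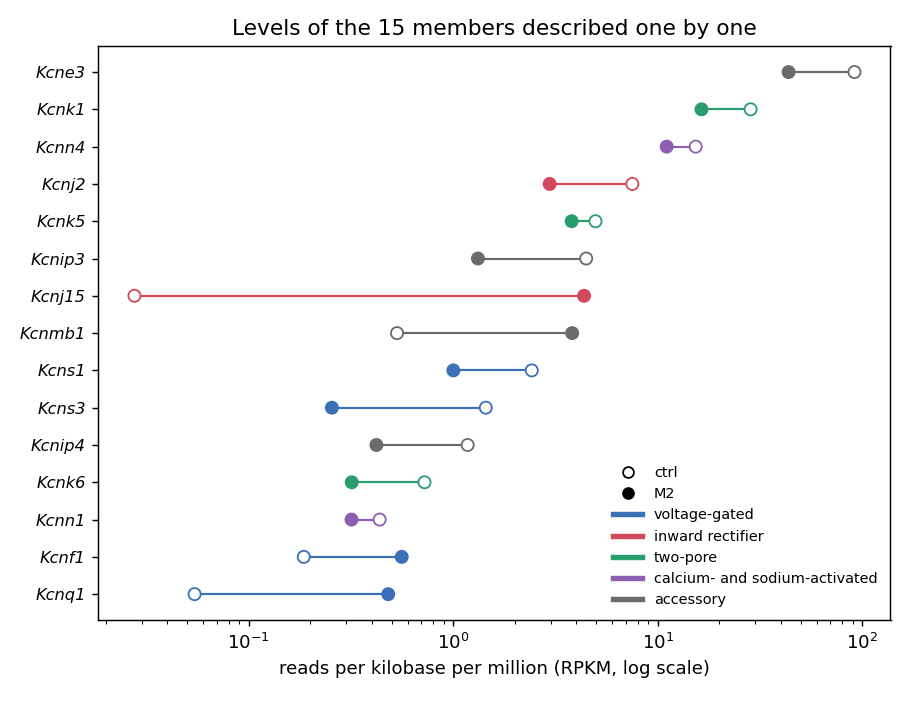
Level per gene length (RPKM, log scale) of 15 members described one by one, in ctrl (open circles) and M2 (filled circles), coloured by class and joined by a line for each gene, with 1 library per circle. Kcne3, Kcnk1 and Kcnn4 are the highest 3 in both libraries, and Kcnj15 (0.03 to 4.37 RPKM) has the longest line.

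A further 7 called members had under 50 reads in both libraries, and 6 of them are named here after their values were seen. They were Kcnj9, Kcnk16 and Kcnu1, described above, and 3 voltage-gated members that were lower in M2. Kcnq5, one of the slowly opening channels that damp firing, had 49 and 23 reads, a log2 difference of −1.19 (−2.00 to −0.48). Kcna6, a delayed rectifier, had 23 and 1 reads, with a closest limit of −2.03, while the adjacent Kcna1 had 2 and 0. Kcnc4, a fast inactivating channel, had 9 and 1 reads and a closest limit of −0.45. At these depths 4 of the 7 rest on a library with at most 3 reads. The share called among members with 10 to 99 summed reads (28.6%) was close to that of all genes in that range (26.8%).

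The 27 members compared and not called spanned log2 differences of −1.003 to 0.89, and for 21 of them the interval held 0. Nearest to the 2-fold threshold, Kcne3 (−1.07) and Kcnj13 (−1.003, 21 and 11 reads) lay just past it and Kcnmb4 (0.89) just short of it. Kcnj13 was not called because its interval (−2.26 to 0.06) held 0, and 49.1% of its exon sequence overlaps the antisense gene Gigyf2, which had 7795 and 10647 reads. For the 6 uncalled members whose interval left 0, a difference under 2-fold was measured, and these include the abundant Kcnk1, Kcnn4 and Kcnk5. In all, 23 members share exon sequence with another gene, 22 of them with a gene on the opposite strand. The use of strand in counting is not given in the sources used here, so reads in such stretches cannot be assigned with certainty.

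**Figure D3:**
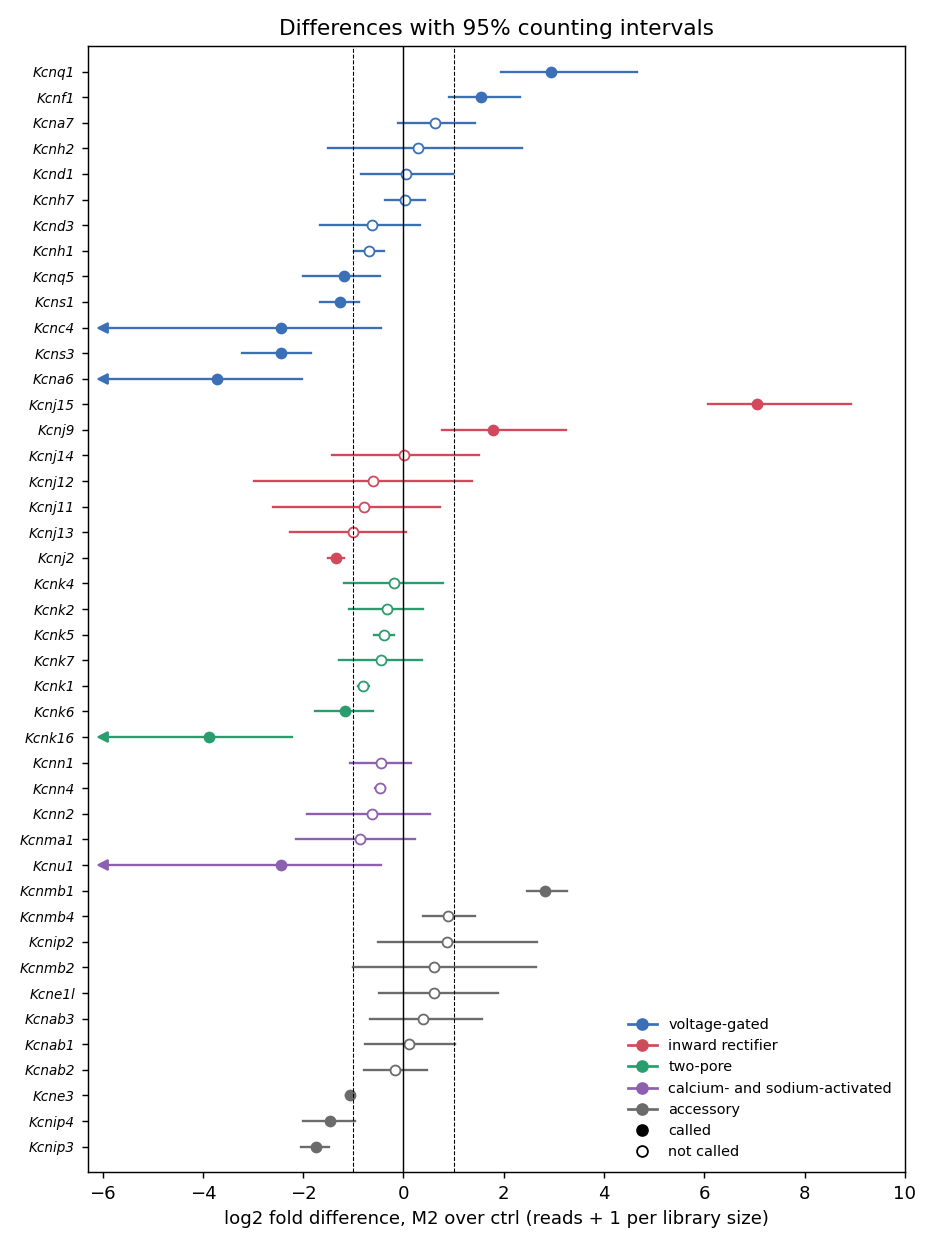
Log2 difference (M2 over ctrl, reads + 1 per library size, x axis) of 43 of the 45 members compared, ordered by class and value, with bars for the 95% counting intervals and arrows where a bar runs past the axis. Filled points are called (17) and open points are not (26), and dashed lines mark 2-fold. The points of all 12 two-pore and calcium- or sodium-activated members lie to the left of 0, although some of their bars cross it. The other classes lie on both sides.

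Summed by class, all members together took 169 RPKM in ctrl and 99.0 RPKM in M2, a log2 difference of −0.57 (−0.61 to −0.53) in summed CPM. Kcne3, Kcnk1 and Kcnn4 made up 80.1% of the summed RPKM in ctrl and 71.9% in M2. Voltage-gated members summed to 1028 and 883 reads (8.12 and 5.79 RPKM), a log2 difference of −0.35 (−0.48 to −0.22). Two-pore channels summed to 2359 and 1570 reads, a difference of −0.72 (−0.81 to −0.62). The calcium- and sodium-activated class summed to 2215 and 1736 reads, a difference of −0.48 (−0.57 to −0.39). These 3 classes were lower in M2, each by under 2-fold.

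The inward rectifiers were the class whose sum of reads was higher in M2, at 1168 and 1413 reads, a log2 difference of 0.15 (0.03 to 0.26). That sign turns with the scale, since per gene length the sum was 8.62 RPKM in ctrl and 8.25 in M2. Without Kcnj2 the rest of the class had 65 and 938 reads, nearly all of the latter from Kcnj15. Accessory subunits summed to 5153 and 3176 reads (99.6 and 51.6 RPKM), a difference of −0.83 (−0.89 to −0.76). Without Kcne3 they had 760 and 890 reads, a difference of 0.10 (−0.04 to 0.24). Class totals therefore followed a single gene in the accessory class, and the balance of Kcnj2 and Kcnj15 in the rectifiers.

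**Figure D4:**
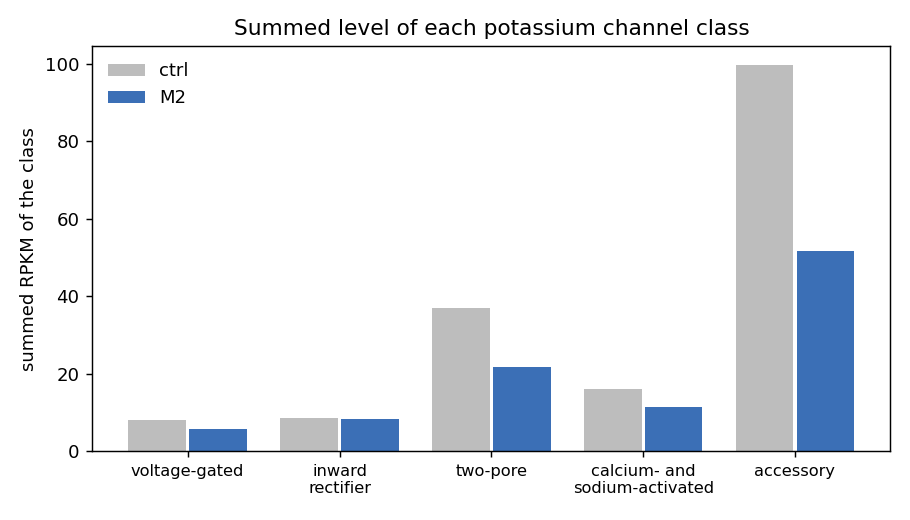
Summed RPKM of each potassium channel class in ctrl (grey bars) and M2 (blue bars), with 1 library per bar and no error bars. The accessory class is the highest in both (99.6 and 51.6 RPKM), and the inward rectifiers are nearly level (8.62 and 8.25 RPKM).

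Potassium channels work beside pumps, cotransporters and anion channels, and 4 lists of such genes were counted in the same way. Of the sodium and proton pump genes 13 of 17 passed 10 reads, 2 higher and 3 lower in M2, with a median log2 difference of 0.02. Among the small regulators of the pump, Fxyd2 had 438 and 27 reads, a log2 difference of −4.10 (−4.77 to −3.59), whereas Fxyd5 had 42 and 278, a difference of 2.57 (2.13 to 3.10). Of the cation-chloride cotransporters and their kinases 17 of 19 passed, 1 higher and 3 lower, with a median of −0.26. Slc12a3, the thiazide-sensitive sodium-chloride cotransporter, had 651 and 18 reads, a difference of −5.23 (−6.07 to −4.63). Wnk4, the kinase that regulates it, had 1947 and 218 reads, a difference of −3.28 (−3.50 to −3.08), so the transporter and its kinase were both lower in M2.

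Of the chloride and sodium channels 15 of 20 passed, 5 higher and 1 lower in M2, with a median of 0.20. Cftr, the chloride channel of secretory epithelia that relies on potassium exit for its driving force, had 28 reads in ctrl against 425 in M2, a log2 difference of 3.75 (3.24 to 4.40). Clca3a1, of a family named for calcium-activated chloride currents, had 47 and 274 reads, a difference of 2.39 (1.96 to 2.89). Of the other channel partners 19 of 23 passed, 2 higher and 6 lower, with a median of −0.66. Trpv4, a calcium-permeable channel that opens on cell swelling, had 89 and 246 reads (1.33, interval 0.98 to 1.71). Amigo1, a partner of Kcnb channels, had 442 and 218 reads (−1.14, interval −1.39 to −0.91). Of the modifiers of these channels described above, Kcns1 and Kcns3 were lower in M2 and Kcnf1 was higher. Shares called in these lists were 5 of 13, 4 of 17, 6 of 15 and 8 of 19, beside the 15.3% of all genes.

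Partners that bind a member of the channel set were then read beside it, chosen after their values were seen. Lrrc26, a gamma subunit that lets BK channels open without calcium, had 197 reads in ctrl against 32 in M2, a log2 difference of −2.71 (−3.34 to −2.21), opposite to Kcnmb1. Dpp6, which joins Kcnip proteins in Kcnd channels, had 21 and 2 reads, with a closest limit of −1.49. The sulfonylurea receptors, which join Kcnj11 and Kcnj8, had 16 and 2 reads for Abcc8 (closest limit −1.04) and 29 and 7 for Abcc9 (−2.04, interval −3.61 to −0.96). These 4 are among the 6 of 19 other channel partners called lower, and the counts of Dpp6, Abcc8 and Abcc9 are low. The anchoring proteins Akap5 (138 and 77 reads, −0.96) and Akap9 (4865 and 5002 reads, −0.09) of the same list were not called.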

How the data were processed

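The authors deposited 1 table of raw read counts per gene (whole numbers, no normalization) with gene coordinates and a length in bases. GRCm38 and mm10 are named in the submitters' processing notes. The aligner, the counting tool and the use of strand are not given in the sources used here. Library preparation used a SMARTER mRNA kit per the labels. Although the design text speaks of a microarray, the values are sequencing counts. All 93 members were found by name in GENCODE M21, 74 with the same start and end. Library size was the total reads in genes (26912610 and 29413844). RPKM used the length in the table. Genes with at least 10 summed reads were compared with a pseudocount of 1 (Python 3.11.15, scipy 1.17.1). Intervals of the ratio cover counting error only and take each read as a separate draw. No molecular identifiers are stated, so copies of the same molecule were not told apart and the intervals may be too narrow. With 1 library per group no dispersion can be estimated. The functions were tested on simulated data. In addition, edgeR 4.0.16 (R 4.3.3) gave TMM factors (1.02 and 0.980) and exactTest calls under assumed coefficients of variation, and 14 alternatives were run.

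Described one by one were called members with at least 50 reads in a library and the 2 members of each class with the highest mean RPKM, and of each partner list the 2 called genes of at least 200 reads with the widest difference. Other genes were named after their values were seen. Members, classes, lists and tests were chosen with earlier results of these data known. The values of some genes are not reported here by name, although all genes entered the counts and sums.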

Additional observations from a re-analysis of the deposited data

How the results depend on the processing

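No paired analysis was possible because ctrl and M2 are 1 library each. Quasi-likelihood tests and DESeq2 were not run, since they need replicates. All 18 called members stayed called under TMM and upper-quartile scaling, scaling without mitochondrial reads, pseudocounts of 0.5 and 5 and an exact binomial test. Median-of-ratios scaling lost Kcne3. All 18 also stayed called with a filter of 1 read, which only admits more genes and so could lose none of them. No difference of a described member changed sign. With at least 1 CPM in both libraries, 1398 of all genes were called (2947 in the main comparison) and 7 members, 1 higher and 6 lower. By class these were 1 voltage-gated, 1 inward rectifier, 1 two-pore and 0 calcium- or sodium-activated members, with 3 pumps and 3 other partners. That filter drops genes low in either library, Kcnj15 among them. At 1.5-fold, 4823 genes and 7 cotransporters or kinases were called. At 4-fold, 1123 genes and 8 members (3 higher, 5 lower) were called, which were 4 voltage-gated, 1 inward rectifier, 1 two-pore, 1 accessory and 1 calcium- or sodium-activated, with 3 pumps and 2 cotransporters or kinases. With exactTest, an assumed coefficient of variation between replicates of 0.1 left 16 members, with 0 calcium- or sodium-activated. At 0.2, 1641 genes and 10 members were left, 6 of them lower, with 4 voltage-gated, 1 two-pore, 0 calcium- or sodium-activated and 3 pumps, and the calls of Kcns1, Kcnk6 and Kcne3 were lost. At 0.4, 303 genes and 1 member, Kcnj15, were left, so 1 was higher and 0 lower, with 1 inward rectifier, 0 voltage-gated, 0 two-pore, 0 calcium- or sodium-activated and 0 accessory, and with 1 pump, 2 cotransporters or kinases, 2 chloride or sodium channels and 2 other partners. The spread between replicates in these cultures is unknown, so which of these assumptions holds cannot be told from 2 libraries. Scaling moved the median of all genes between −0.07 and 0.02. Depth limits the members under 10 reads, for which a difference of several-fold could go unseen.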

Other observations

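Some rows share the Kcn prefix but are not channel subunits. Kcnrg, which encodes a regulator of voltage-gated channel assembly, had 16 reads in ctrl against 21 in M2, and its interval held 0 (−0.74 to 1.30). Of the antisense or overlapping transcripts, Kcnmb4os1 had 16 and 42 reads and was called higher in M2, with a log2 difference of 1.21 (0.40 to 2.19). Kcnmb4os2 had 17 and 26 reads, Kcnab3os had 3 and 5, and Kcnd3os had 1 and 0. Kcnq1ot1 had 156 and 122 reads, a log2 difference of −0.48 (−0.84 to −0.13), beside 6 and 58 for Kcnq1.

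Of the cation channels that open on hyperpolarisation, which work against potassium channels at rest, Hcn4 had 107 reads in ctrl against 11 in M2, a log2 difference of −3.30 (−4.46 to −2.51). Hcn2 (5 and 15 reads) and Hcn3 (28 and 19) were not called. Of the subunits of the epithelial sodium channel, Scnn1a had 1223 and 349 reads, a difference of −1.93 (−2.11 to −1.76), while Scnn1g had 11 and 39, a difference of 1.61 (0.70 to 2.81), and Scnn1b had 6 and 2. Slc12a2, the basolateral cotransporter that loads cells with chloride and potassium, had 18579 and 7684 reads, a difference of −1.40 (−1.44 to −1.36).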
